A study of Mus musculus with 6 samples.

Results

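The ADP-ribosyltransferases of the PARP family were followed through Parp1, Parp2, Parp3, Parp8, Parp9, Parp10, Parp11, Parp12 and Parp14, together with Dtx3l, the ubiquitin ligase that pairs with the Parp9 protein. All 10 of these 10 genes had a transcript cluster, the probe set that stands for a gene on the array, that was annotated to that gene alone, out of 19938 genes measured in this way. None of them had a second cluster, and no cluster shared between genes named one of them. For the comparison they were divided by their published roles into 6 antiviral genes (Parp9, Dtx3l, Parp10, Parp11, Parp12 and Parp14) and 3 DNA-repair genes (Parp1, Parp2 and Parp3), while Parp8 belonged to neither.

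The samples were 6 Affymetrix mouse gene arrays, 3 of high binding cells (HBC) and 3 of low binding cells (LBC). Both came from imm. SVF, an immortalised preadipocyte line made from inguinal fat of 129SVE males, by repeated flow sorting on bound FcsFNDC4, the soluble part of FNDC4 fused to a human Fc, and both were untreated other than by this sorting and expansion and were taken at passage 20. The 3 arrays of a group were technical replicates of 1 sorted population, so p-values measure the spread between arrays and not between independent sorts. For LBC replicates 2 and 3, 1 label (the source name) calls the cells HBC, whereas title, description and phenotype call them LBC, and the grouping followed the titles.

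PARP enzymes move ADP-ribose from NAD+ onto proteins and nucleic acids. Parp1 and Parp2 build chains of it at broken DNA, where the chains gather repair proteins, and Parp3 adds single units at such breaks. Most other members add single units or have lost the activity, and several are induced by interferon and restrain viruses. Macrodomain proteins and hydrolases read and remove the mark, and the NAD+ used is remade mainly by the salvage route.

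Promoters are shown for the antiviral members with an entry, because interferon-induced genes are commonly grouped by the motifs near their starts, and for Parp3, the repair member that was called. RefSeq windows of GRCm38.p6, 250 bases before to 50 after a start, were found for 7 of the 10 members, with 8 windows in all, and Parp9, Parp10 and Parp14 had no entry. On either strand, the ISRE core was searched for (GAAA, any 2 bases and again GAAA), a motif of interferon-induced genes, as were the GAS core TTCNNNGAA, another such motif, and the GC box GGGCGG. Capitals mark the ISRE core TTTCGATTTC, read on the opposite strand, and the GAS core TTCTTGGAA, which share 3 bases, and lower case marks the rest.
Parp11, upstream start, chr6:127446590-127446889, plus strand: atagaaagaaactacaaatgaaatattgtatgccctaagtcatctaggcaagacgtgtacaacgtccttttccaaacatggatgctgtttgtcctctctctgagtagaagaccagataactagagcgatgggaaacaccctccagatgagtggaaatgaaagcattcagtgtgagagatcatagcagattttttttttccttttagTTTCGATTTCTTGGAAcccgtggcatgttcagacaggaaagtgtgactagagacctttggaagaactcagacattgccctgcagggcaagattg
Parp11, downstream start, chr6:127453377-127453676, plus strand: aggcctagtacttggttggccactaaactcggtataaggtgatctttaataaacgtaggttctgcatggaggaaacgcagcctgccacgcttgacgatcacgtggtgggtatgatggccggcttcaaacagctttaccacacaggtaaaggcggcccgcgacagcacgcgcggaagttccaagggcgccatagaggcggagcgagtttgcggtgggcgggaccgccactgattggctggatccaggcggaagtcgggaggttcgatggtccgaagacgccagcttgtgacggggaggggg
Parp12, chr6:39118300-39118599, minus strand: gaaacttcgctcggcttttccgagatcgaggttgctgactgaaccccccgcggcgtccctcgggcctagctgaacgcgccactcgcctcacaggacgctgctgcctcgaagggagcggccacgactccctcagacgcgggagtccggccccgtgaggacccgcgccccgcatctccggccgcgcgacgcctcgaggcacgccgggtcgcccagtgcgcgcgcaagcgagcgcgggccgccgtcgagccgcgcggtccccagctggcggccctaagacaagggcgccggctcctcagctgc
Dtx3l, chr16:35938978-35939277, minus strand: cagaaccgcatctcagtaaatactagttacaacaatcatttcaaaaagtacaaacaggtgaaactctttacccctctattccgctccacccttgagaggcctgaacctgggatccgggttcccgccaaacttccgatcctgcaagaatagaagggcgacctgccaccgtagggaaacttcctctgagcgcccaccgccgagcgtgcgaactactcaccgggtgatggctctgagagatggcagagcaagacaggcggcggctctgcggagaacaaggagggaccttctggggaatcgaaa
Parp3, chr9:106476900-106477199, minus strand: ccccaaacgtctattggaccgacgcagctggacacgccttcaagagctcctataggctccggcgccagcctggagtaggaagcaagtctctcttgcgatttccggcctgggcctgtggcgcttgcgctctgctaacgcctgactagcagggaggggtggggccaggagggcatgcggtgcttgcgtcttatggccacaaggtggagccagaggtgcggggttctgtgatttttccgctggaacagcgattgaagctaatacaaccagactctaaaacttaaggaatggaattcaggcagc

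Of the 8 windows, 1 held the ISRE core and the GAS core, that of the upstream Parp11 start, where the ISRE core began 44 bases before the start and the GAS core 37 before it. Among 32851 windows of the same length, 3.44% held the ISRE core, 8.30% the GAS core and 35.7% a GC box. Neither core was found in the window of Parp12 or Dtx3l, which says only that these letters were not in these bases. GC boxes were found 4 times for Parp1, 3 times for Parp8 and 1 time each for Parp2 and the downstream Parp11 start. The GC content was 73.7% for Parp12 and 72.3% for Parp8, with 46 and 37 CpG pairs, compared to a median of 52.7% and 7 over all windows. The upstream Parp11 window was the poorest of the 8, with 42.0% and 5 CpG pairs.

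All 6 antiviral members rose in HBC, by between 1.49 and 2.42 on the log2 scale, and of the 3 DNA-repair members Parp3 rose while Parp1 and Parp2 were lower in HBC by less than the 1.5-fold that a call required. A call needed an adjusted p under 0.05 in limma over all 19938 genes and a fold above 1.5 (0.585 on the log2 scale), and folds were taken on log2(intensity + 16), which makes the change of dim genes smaller. By this rule 7 of the 10 members were called higher in HBC, where 2.54% of all genes were, and 0 were called lower, where 1.13% of all genes were. The median log2 fold change was 2.13 over the antiviral members and -0.30 over the repair members, compared to -0.07 over all genes. As these are bulk samples, fewer cells with a transcript and less of it per cell cannot be told apart.

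**Figure D1:**
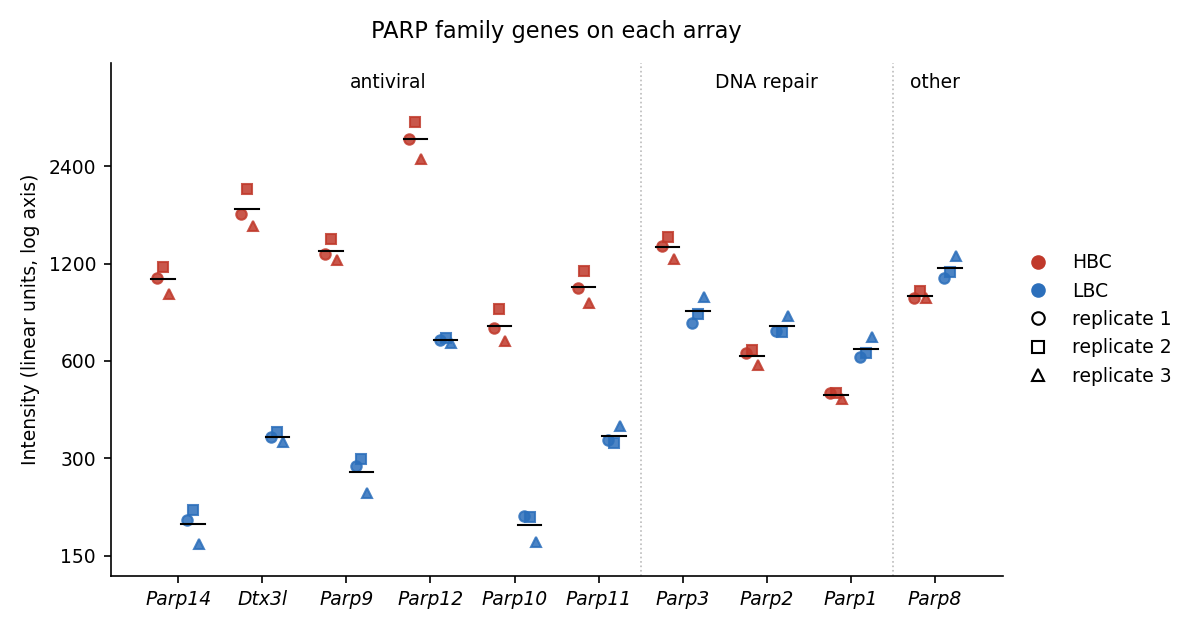
Intensity (linear units, log axis) of the 10 members on each of the 6 arrays, with HBC in red and LBC in blue, the marker shape giving the replicate and the bar the group mean. HBC and LBC did not overlap for any member, with HBC above LBC for 7 (10.1% of all genes) and below it for 3 (25.1% of all genes). Levels of different genes come from different probes and are not comparable.

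Parp14, a mono-ADP-ribosyltransferase with macrodomains known for its part in Stat6 signalling, had the largest change of the members. Its intensity was 1084, 1173 and 965 on HBC replicates 1, 2 and 3 and 194, 208 and 163 on LBC replicates 1, 2 and 3. The lowest HBC array was thus several times the highest LBC array. The means were 1074 ± 105 (SD, n = 3) and 188 ± 23.1 (SD, n = 3), a log2 fold change of 2.42 ± 0.095 (SE, limma adjusted p = 1.27e-18), which placed it at rank 57 of all genes by size of rise.

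Dtx3l and Parp9 encode partner proteins, a Deltex-type E3 ubiquitin ligase and a macrodomain protein that carries it to ADP-ribosylated sites. For Dtx3l the HBC arrays read 1711, 2047 and 1571 and the LBC arrays 349, 362 and 336. The Parp9 intensities were 1289, 1430 and 1231 in HBC and 283, 298 and 235 in LBC. In both genes the groups lay far apart and their order among arrays was the same, with HBC replicate 2 highest and LBC replicate 3 lowest. The log2 fold changes were 2.29 ± 0.093 for Dtx3l (SE, n = 3 and 3, limma adjusted p = 2.92e-18) and 2.21 ± 0.093 for Parp9 (SE, n = 3 and 3, limma adjusted p = 6.61e-18). Their 95% intervals, 2.10 to 2.48 and 2.02 to 2.41, overlapped. The annotated Parp9 and Dtx3l genes share 558 bases, and whether the probes of either lie there was not tested.

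Parp12, a zinc finger protein that slows the replication of several viruses, gave 2923, 3299 and 2534 in HBC and 697, 708 and 681 in LBC. The LBC arrays were close together (695 ± 13.4, SD, n = 3) and the HBC arrays more spread (2919 ± 383, SD, n = 3). The log2 fold change was 2.04 ± 0.092 (SE, limma adjusted p = 3.53e-17).

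Parp10, a mono-ADP-ribosyltransferase first isolated as a partner of Myc, gave 756, 867 and 691 in HBC and 198, 197 and 166 in LBC. It was clearly separated between groups, with a log2 fold change of 1.95 ± 0.094 (SE, n = 3 and 3, limma adjusted p = 1.66e-16). Parp11, an enzyme of the same kind found at the nuclear envelope, gave 1010, 1139 and 908 in HBC and 341, 335 and 376 in LBC. It had the smallest change of the 6 antiviral members, 1.49 ± 0.091 on the log2 scale (SE, n = 3 and 3, limma adjusted p = 5.68e-14), and its interval of 1.31 to 1.68 lay below those of the other 5, the lowest of which began at 1.76 (Parp10).

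Among the DNA-repair members the direction was divided. Parp3 gave 1362, 1453 and 1241 in HBC and 789, 838 and 946 in LBC, without overlap. It rose by 0.65 ± 0.091 on the log2 scale (SE, n = 3 and 3, limma adjusted p = 2.29e-06), and its 95% interval of 0.46 to 0.83 included the fold threshold of 0.585. With the test named in the methods, which takes each gene's variance alone, its adjusted p was 0.0463.

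Parp1, the main enzyme of chain synthesis at breaks, gave 477, 477 and 457 in HBC and 616, 637 and 713 in LBC. All HBC arrays were below all LBC arrays, opposite to Parp3. The log2 fold change was -0.46 ± 0.086 (SE, limma adjusted p = 0.000166, 95% interval -0.64 to -0.29). Parp2, which acts beside it, gave 637, 648 and 583 in HBC and 743, 735 and 829 in LBC. The difference was smaller, -0.30 ± 0.087 (SE, limma adjusted p = 0.0143, 95% interval -0.47 to -0.12).

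Parp8, a mono-ADP-ribosyltransferase whose role is little known, gave 941, 988 and 938 in HBC and 1086, 1127 and 1267 in LBC. Its groups did not overlap either, and its log2 fold change of -0.27 ± 0.087 (SE, limma adjusted p = 0.0252) was near that of Parp2. At any fold, 3 of the 10 members (Parp1, Parp2 and Parp8) were thus lower in HBC, and so were 11.4% of all genes. For Parp2 and Parp8 this did not hold throughout, with an adjusted p not under 0.05 in 4 and 9 of 20 alternatives, reaching 0.12 and 0.21. For Parp1 it was under 0.05 in all 20.

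No member had overlapping groups. HBC lay above LBC for 7 of the 10, where 10.1% of all genes did, and below it for 3 of the 10, where 25.1% of all genes did. The median of all genes was below 0, with 13825 of 19938 negative, the same sign as Parp1, Parp2 and Parp8 and opposite to Parp3. Parp1 was lower than 97.6% of genes in the order of log2 fold change, Parp2 lower than 92.1% and Parp8 lower than 90.6%.

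**Figure D2:**
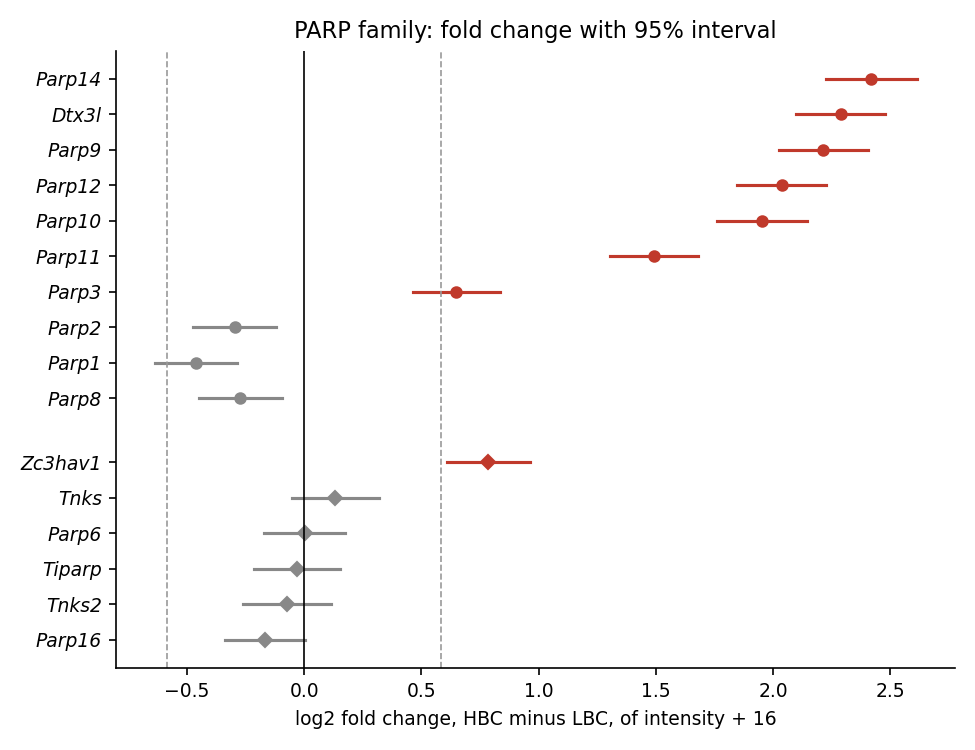
Log2 fold change of intensity + 16, HBC minus LBC, for the 10 members (circles) and 6 further PARP genes (diamonds), with 95% intervals from limma over 3 and 3 arrays and dashed lines at a fold of 1.5. Red marks called genes, from Parp14 at 2.42 down to Parp3 at 0.65, with Zc3hav1 at 0.79, and grey the rest, down to Parp1 at -0.46.

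The arrays of a group kept nearly the same order for all antiviral members. HBC replicate 2 was the highest and HBC replicate 3 the lowest HBC array for all 6 antiviral members, and LBC replicate 3 was the lowest LBC array for 5 of them, Parp11 being the exception. For the 3 repair members and for Parp8, LBC replicate 3 was instead the highest LBC array. The mean intensity of all clusters was 499, 514 and 483 on the HBC arrays and 471, 490 and 547 on the LBC arrays. By this mean HBC replicate 2 and LBC replicate 3 were the brightest of their groups. By the median intensity the same arrays were the lowest, with 124, 122 and 132 in HBC and 134, 135 and 131 in LBC. The part of array brightness in the order of single members was not tested. Without LBC replicate 3 the log2 fold change of Parp1 was -0.40 and that of Parp8 was -0.21.

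Outside the 10, the family was mostly level between the populations. Of 7 other genes listed, 6 had a cluster of their own, and 1 rose. Zc3hav1, the zinc finger antiviral protein that binds viral RNA and lacks transferase activity, gave 1541, 1722 and 1499 in HBC and 867, 960 and 914 in LBC. This was a log2 fold change of 0.79 ± 0.087 (SE, n = 3 and 3), close to that of Parp3 and well below the 6 listed antiviral members. Zc3hav1 was not counted in that list, although its protein is antiviral too. The other five were between -0.17 (Parp16, an enzyme of the endoplasmic reticulum) and 0.13 (Tnks, a tankyrase that modifies Axin and telomere proteins), with Tnks2 at -0.07, Tiparp, a target of the aryl hydrocarbon receptor, at -0.03 and Parp6 at 0.00. None of these was called, and the list had a median of -0.01.

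The other listed genes of DNA break repair, which include both factors that work with Parp1 and genes of end joining, showed no called gene in either direction. Of 17 listed, 16 were measured, and all 16 had a log2 fold change below 0, as did 13825 of all 19938 genes. At any fold, 9 of the 16 were lower with an adjusted p under 0.05, where 11.4% of all genes were. The median was -0.28, near those of Parp2 and Parp8. Xrcc5, the larger subunit of the Ku complex that binds broken ends, was lowest at -0.55 (725 ± 32.1 in HBC and 1071 ± 106 in LBC, SD, n = 3). Hpf1, the factor that turns Parp1 and Parp2 toward serine, followed at -0.47 (695 ± 9.5 and 974 ± 123, SD, n = 3). By the test named in the methods, 2 of the 16 had an adjusted p under 0.05. Of the 8 measured proliferation markers 0 were called, all 8 had values below 0 and 2 had an adjusted p under 0.05 at any fold, with a median of -0.20. Without LBC replicate 3, 5 of those 8 and 15 of the 16 break-repair genes were below 0, with medians of -0.09 and -0.21. The part of proliferation in the repair genes was not tested.

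The genes that remove ADP-ribose were near the median of all genes. Of 9 listed, 6 were measured and 0 called, with a median of -0.10. Oard1, the hydrolase that frees ADP-ribose from acidic residues, was lowest at -0.31, followed by Adprs, which frees it from serine and is listed on the array by an older symbol, at -0.14.

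Among 11 genes listed for NAD+ synthesis, all measured, 1 rose and 0 fell, with a median of -0.09. This list also counts the NAD+ kinases Nadk (-0.06) and Nadk2 (-0.21), which use NAD+. Nmnat2, the cytoplasmic enzyme of the last step, gave 407 ± 16.6 in HBC and 225 ± 8.9 in LBC (SD, n = 3), a log2 fold change of 0.81. Nampt, the rate-limiting enzyme of the salvage route, was 2263 ± 161 in HBC and 1558 ± 122 in LBC (SD, n = 3), a log2 fold change of 0.54 that did not reach the fold required. Nmnat3, the mitochondrial form, was on the other side at -0.31. The other users of NAD+, sirtuins for the most part, had 9 of 10 genes measured, 0 called and a median of 0.00, the lowest being Sirt3, a mitochondrial deacylase, at -0.21.

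The ecto-ADP-ribosyltransferases, which act on extracellular proteins and belong to another family, had 4 of 6 genes measured and 0 called. Of these 4, 3 were within the range of dim signal, taken as the 10th to 90th percentile of 1027 olfactory receptor genes (13.7 to 83.9 in HBC and 13.8 to 86.1 in LBC). All 10 members lay above that range in both groups. The 4 Deltex ligases other than Dtx3l, that is Dtx1, Dtx2, Dtx3 and Dtx4, were all measured, and 0 were called. Dtx4 was lowest at -0.55, opposite in sign to Dtx3l.

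Stat2 and Irf9, whose proteins act together at the ISRE, were both measured. Stat2 had a log2 fold change of 2.35 (1776 ± 158 in HBC and 338 ± 57.8 in LBC, SD, n = 3), and Irf9 of 1.71 (1462 ± 42.7 and 445 ± 113, SD, n = 3). Both were called higher, and both fell between the antiviral members in size.

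**Figure D3:**
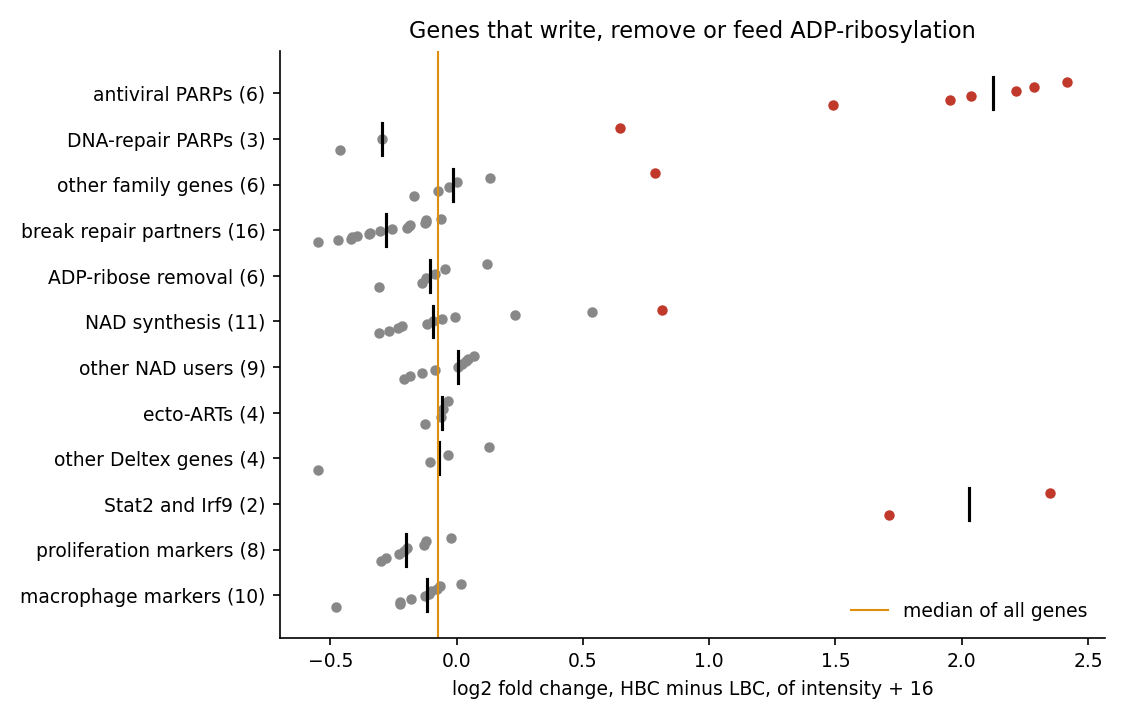
Log2 fold change of intensity + 16, HBC minus LBC, of each measured gene (points) in 12 lists, with the number of genes in brackets, the black bar the list median and the orange line the median of all genes (-0.07). Red marks called genes. The antiviral PARPs, which include Dtx3l, and Stat2 with Irf9 stand at medians of 2.13 and 2.03, while the median of every other list shown lay between -0.30 and 0.00.

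The labelled cell type was checked by its markers. Of 10 preadipocyte genes 9 were measured, and Pparg, the regulator of fat cell formation, averaged 1707 in HBC and 1360 in LBC, while Lum was dim. Pdgfra and Col1a1, genes of fibroblast-like precursors, averaged 4096 and 4690 in HBC and 3166 and 3685 in LBC. The 1 called gene of this list, Dcn, a matrix proteoglycan, went the other way and fell (2933 ± 138 in HBC and 5049 ± 405 in LBC, SD, n = 3, log2 fold change -0.78), and Cd34, a precursor surface protein, was at -0.45 without a call. Of 6 genes of mature adipocytes 0 were called and 3 were dim in both groups (Adipoq, Lep and Cidec), while Plin1 was above the dim range. Fabp4, a fatty acid carrier, averaged 2363 in HBC and 1774 in LBC (0.42 on the log2 scale), and Retn, the gene of resistin, 187 and 120.3 (0.58), just under the fold required. All 5 endothelial markers were dim in both groups. Of 10 macrophage markers 0 were called and 5 were dim in both groups, among them Adgre1, Ptprc and Lyz2. Above the dim range were Cd68 (174 in HBC and 188 in LBC), Itgam (159 and 189) and Fcgr1 (117 and 116). So were Csf1r (90.1 and 94.9) and Cd14 (107 and 155). The summed intensity of all 10 was 858 to 884 in HBC and 958 to 1015 in LBC. Their median log2 fold change was -0.12, compared to -0.07 over all genes, with Cd14 lowest at -0.48 and Fcgr1 highest at 0.02. The part of macrophage transcripts in the member differences was not tested. Of the 3 measured lymphocyte markers 0 were called, and Cd79a was dim. Cd3e (143 in HBC and 140 in LBC) and Nkg7 (162 and 171) lay above the dim range. Across genes, arrays correlated at 0.996 to 0.999 within a group and at 0.981 to 0.987 between groups.

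The genes with the most similar pattern were sought by the root mean square difference of the 6 log2 values, each gene centred on its own mean, among 19937 other genes. For Parp9 these were Samd9l, an interferon-induced gene (0.05), Stat2 (0.08) and Psmb9, an immunoproteasome subunit (0.09). Its partner Dtx3l came next, at rank 4 (0.09), and Parp14 at rank 7 (0.11). For Parp14 they were Ifit1, which binds foreign RNA (0.04), Ifih1, a sensor of double-stranded RNA (0.06), and Stat2 (0.06). For Parp12 they were Htra1, a secreted protease (0.05), Pla1a, a phospholipase (0.06), and Lgals9, a galectin (0.06), with Parp10 at rank 7 (0.08). With 6 arrays in 2 groups, this likeness rests largely on the size of the difference between groups.

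Parp14, Dtx3l and Parp9 follow one another on chromosome 16 in the order of measured genes, and all 3 rose, whereas the measured genes that flank them did not. In RefSeq the next gene after Parp14 is the pseudogene Gm41467, and the one before Dtx3l is the pseudogene Gm10237, neither of them measured. Hspbap1, next to Parp14, was at -0.28 (SE 0.091), and Kpna1, an importin next to Parp9, was at 0.00 (SE 0.090), a value whose sign changed when single arrays were left out. The step from the cluster to its flanks was thus over 2 log2 units on either side.

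Parp12 has a long non-coding gene, 4930599N23Rik, on its other side, on the opposite strand, whose start lies 123 bases from its own, so that their promoter windows share 223 bases. This gene gave 200, 219 and 171 in HBC and 67.8, 50.2 and 55.7 in LBC. It rose with Parp12, by 1.53 ± 0.097 on the log2 scale (SE, n = 3 and 3, limma adjusted p = 1.57e-13), from a level within the dim range in LBC. Tbxas1, on the far side of Parp12, was at -0.01.

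Around the other members no measured neighbour was called, with the exception of Isl1. For Parp10 these were Plec (0.09) and Grina (0.35), for Parp11 Ccnd2 (0.16) and Cracr2a (-0.16), and for Parp3 Gpr62 (-0.07) and Rrp9 (-0.34). For Parp2 they were Rpph1 (0.14) and Klhl33 (0.10). Gpr62 and Klhl33 were dim in both groups. Parp1 was followed by Lin9, a subunit of a cell cycle complex, whose log2 fold change of -0.47 was nearly its own, and preceded by Stum (-0.04). Isl1, a homeobox gene and the nearest measured gene before Parp8, rose by 1.37 ± 0.089 on the log2 scale (354 ± 23.7 in HBC and 128 ± 12.2 in LBC, SD, n = 3), in the opposite direction to Parp8, with Emb after it at 0.34.

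**Figure D4:**
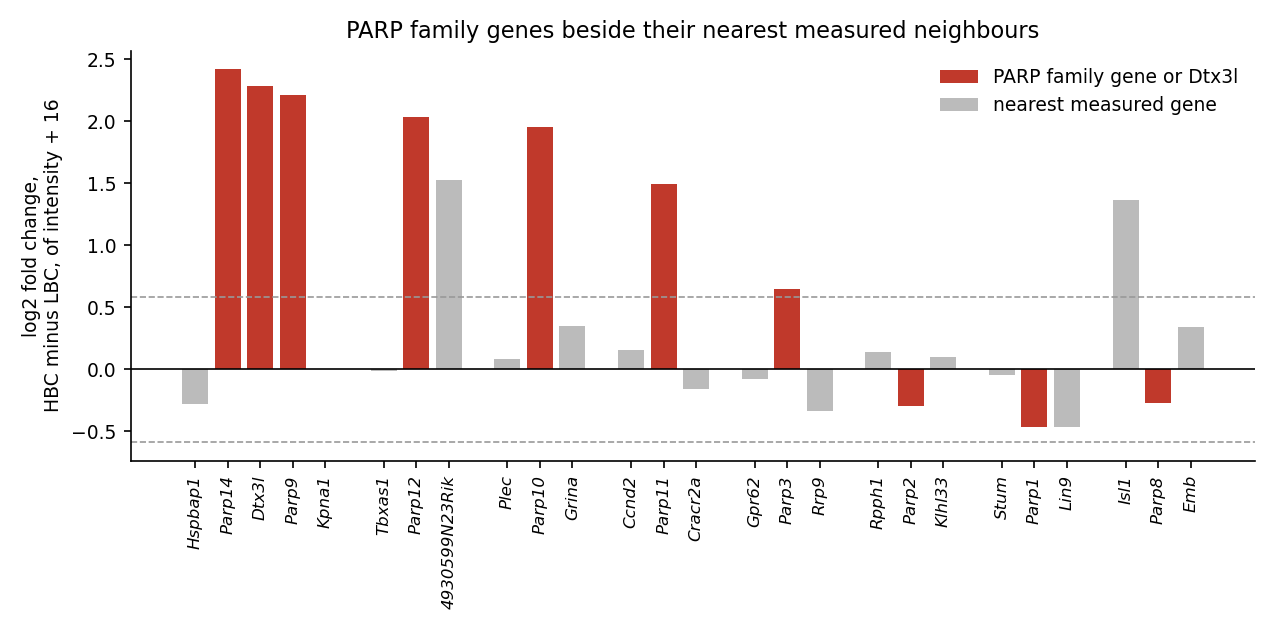
Log2 fold change of intensity + 16, HBC minus LBC, of the members (red) and of the nearest measured gene on each side (grey), in chromosomal order within each group of bars, with dashed lines at a fold of 1.5. Parp14, Dtx3l and Parp9 stand at 2.42, 2.29 and 2.21 between flanking genes at -0.28 and 0.00, and 4930599N23Rik beside Parp12 at 1.53.

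The size and direction of the member differences were read again under 20 alternatives. The antiviral members stayed between 1.41 (the lowest of Parp11) and 2.51 (the highest of Parp14). Parp3 ranged from 0.59 to 0.76 and stayed called in all 20, with its lowest value without LBC replicate 1. With LBC replicate 1 as the only LBC array, the 1 whose source name also reads LBC, the same members were called, 7 higher and 0 lower.

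**Figure D5:**
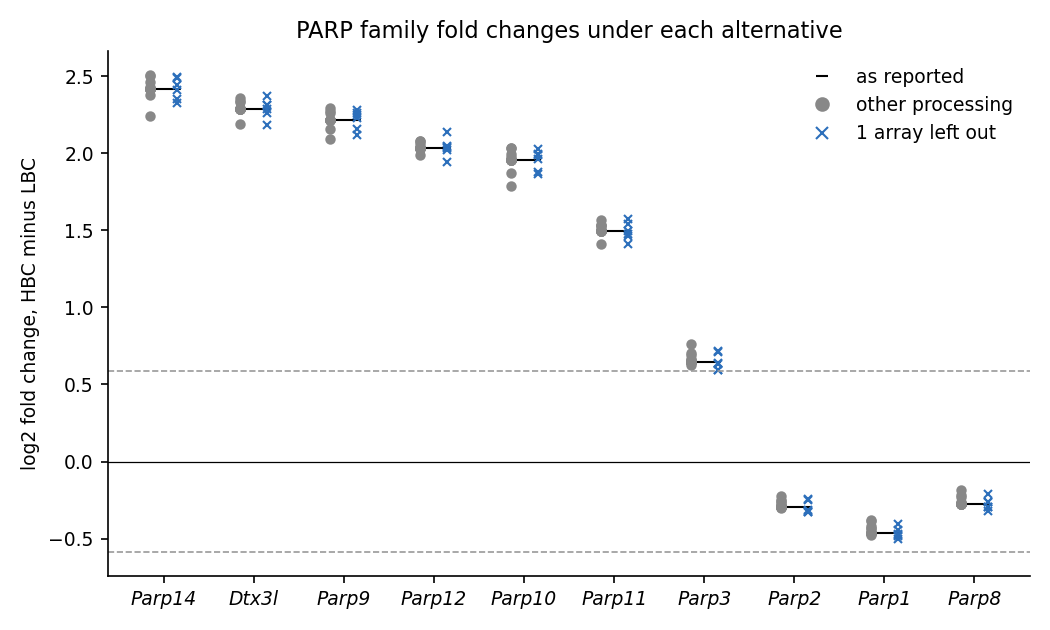
Each member's log2 difference between HBC and LBC as reported (black bars), under other processing (grey circles) and with 1 array left out (blue crosses), with dashed lines at a fold of 1.5. No member changed sign or side of the threshold, and Parp3 came nearest to it at 0.59.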

How the data were processed

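Total RNA of HBC and LBC was hybridised to Affymetrix mouse gene arrays. The authors deposited intensities per transcript cluster on a linear scale, made with Affymetrix Expression Console per the submitters' processing notes, whose version and scaling of arrays are not stated. Row identifiers fitted an older mouse gene array than the 2.0 version that the methods name.

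The annotation gave 1 symbol to 21789 of 35556 clusters; 1621 with several and 12146 with none were left out, and 21698 matched RefSeq (GRCm38.p6), used for names, gene order and promoters. A gene with several clusters was read from the one brightest over the 6 arrays, giving 19938 genes.

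Values were taken to log2(intensity + 16), and the 3 HBC were set against the 3 LBC arrays in limma 3.58.1 (R 4.3.3, lmFit and eBayes), without a block, with Benjamini-Hochberg adjustment over all genes. The fit had 24.9 prior degrees of freedom against 4 residual ones, so the exponents of very small p-values carry little meaning. The script was tested on simulated data. Arrays give no count depth, and their number limits the precision.

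Members and lists were chosen with earlier results of these data known. Named were all members, the called or most changed genes of each pathway list, the 3 genes most like Parp9, Parp14 and Parp12, and neighbours; genes outside this rule were named after their values were seen. Alternatives covered scaling, the added constant, filters, test, variance prior, cluster choice, replicate block, threshold and each array left out; LBC replicate 1 alone was added after seeing the data.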

Additional observations from a re-analysis of the deposited data

How the results depend on the processing

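All 10 members kept their direction and their side of the threshold under the 20 alternatives for fold changes, and the antiviral median stayed between 2.04 and 2.20. With no fold threshold, the calls over all genes came to 1381 higher and 2274 lower in HBC, and 3 members were called lower (Parp1, Parp2 and Parp8). At a fold above 2, 236 genes were called higher and 44 lower, and of the repair members 0 were called higher, since Parp3 lies under that fold. Leaving out 1 array gave 478 to 552 genes higher and 179 to 301 lower, and a repair median of -0.33 to -0.24. With LBC replicate 1 as the only LBC array, whose spread was taken from the HBC arrays, these were 577 and 155 genes. Kpna1, at 0.00, ranged from -0.069 to 0.083 with 1 array left out, below 0 without HBC replicate 2 (-0.039), LBC replicate 1 or LBC replicate 2 (-0.0085). Xrcc5, Nampt and Dtx4, near the threshold, were called under 3, 3 and 2 of the 20. With the replicate number as a block (replicate block), 7 members were called higher and 0 lower, as without it. The numbers name technical replicates that did not deviate together (correlations of -0.10, -0.24 and -0.50 for equal numbers), and the closest pair of unlike arrays was HBC 3 with LBC 1 (0.49). The number of arrays and 1 population per group limit what these values can show.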

Other observations

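Parp4, whose protein is part of the vault particle, was measured only in a cluster shared with Mphosph8, which averaged 475 ± 6.65 on the HBC and 436 ± 45.7 on the LBC arrays (SD, n = 3), a difference of 0.12 on the log2 scale. Zc3hav1l, Parpbp, Tnks1bp1 and Rnf146, whose proteins work with or resemble the family, were not called. Zc3hav1l, a paralogue of Zc3hav1, was at -0.44 where Zc3hav1 rose. Parpbp, a partner of Parp1 in replication, was at -0.24, Tnks1bp1, which binds tankyrase, at 0.29 and Rnf146, the ligase that reads chains of ADP-ribose, at 0.04. Nnmt, which methylates nicotinamide, the product of every PARP reaction, averaged 582 ± 34.2 on the HBC and 107 ± 7.71 on the LBC arrays (SD, n = 3), a rise of 2.28 on the log2 scale, nearly that of Dtx3l. These genes were named after their values were seen.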
